A study of Arabidopsis thaliana with 24 samples.

Results

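The SOS1 line of Arabidopsis thaliana was compared with its glabrous (hairless-leaved) Columbia wild type, Col(gl), in leaves of plants that received no salt. The comparison took every array labelled as SOS1 leaf at 0 mM NaCl (2 arrays) and every array labelled as Col(gl) leaf at 0 mM NaCl (2 arrays), which is 4 of the 24 arrays in the series. SOS1 plants carry an SOS1 overexpression construct in the Col(gl) background and were 20 days old. Col(gl) plants were wild type, of the same age, watering and background. The labels name neither the promoter of the construct, nor the allele behind the hairless leaves, nor how many transgenic lines were used. Short days (10 h light, 14 h dark) were used for both groups, and each sample combined leaves of at least 15 seedlings. The same 2 genotypes were also sampled at 100 mM NaCl, reached in steps of 50 mM from day 14, and these 4 arrays are used below to give the same genotype difference in other samples. The other 16 arrays hold the CBF3 and M6PR lines with the Ws and Col wild types, with and without salt.

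SOS1 is a plasma membrane antiporter that moves sodium out of the cell in exchange for protons. A calcium-sensing protein (SOS3) and a protein kinase (SOS2) switch it on when sodium rises, and plants without it are strongly salt sensitive. The comparison of unsalted leaves asks how the leaf transcriptome of the line differs from that of its wild type before any salt treatment.

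Expression was read on Affymetrix ATH1 arrays as RMA signals on a log2 scale, so a difference of 1 is a 2-fold difference. Of 22746 probe sets tested, 13513 could be named by a single gene, and the gene table used here paired no probe set, single or shared, with SOS1 itself, so the overexpression was not checked. The labelled tissue was checked with the few defining markers that could be named. The leaf genes RCA, which activates Rubisco, and LHCB4.1, a light-harvesting protein, were near the top of the scale on all 4 arrays. RCA read 13.50 and 13.61 in SOS1 leaves, against 13.69 and 13.64 in Col(gl) leaves. The root hair expansins EXPA7 and EXPA18 read between 4.22 and 5.36 on the 4 arrays, and the meristem signal CLV3 read between 3.56 and 3.93.

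A gene was called when limma's moderated test, fitted over all 24 arrays, gave a Benjamini-Hochberg adjusted p under 0.05 over all probe sets. At that threshold 281 probe sets (1.24%) differed between SOS1 and Col(gl) leaves. Of these, 81 (0.356%) were higher and 200 (0.879%) were lower in SOS1 leaves, and 164 differed at least 2-fold. With each array centred on its median, the split was 76 higher and 413 lower. In all, 3226 probe sets reached an unadjusted p under 0.05. In all 281 called probe sets both SOS1 arrays lay on the same side of both Col(gl) arrays. That was also so for 16.8% of all probe sets on the higher side and 22.6% on the lower side. In RNA from whole leaves, fewer cells of a type and less RNA per cell cannot be told apart.

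The count of calls rested on the spread of all 12 groups and on single arrays. Fitted on the 4 compared arrays alone, limma called 0 probe sets, with 2073 at an unadjusted p under 0.05. A fit of the 8 SOS1 and Col(gl) arrays called 51, of which 30 were among the 281. Leaving out SOS1 replicate 1 gave 44 calls and leaving out SOS1 replicate 2 gave 4439. Leaving out Col(gl) replicate 1 gave 16 calls, and leaving out Col(gl) replicate 2 gave 28. Most fold changes below are therefore given with the signal on every array.

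The 2 unsalted SOS1 arrays differed from each other more than the replicates of any other group. The SD over probe sets of the difference between replicates was 0.625 log2 units in unsalted SOS1 leaves, the highest of 12 groups, and 0.17 in unsalted Col(gl) leaves, the lowest. Replicate 1 of SOS1 lay over 1 log2 unit above the Col(gl) mean at 877 probe sets (3.86%) and below it at 1354 (5.95%). Replicate 2 did so at 412 (1.81%) and 162 (0.712%). SOS1 replicate 1 exceeded replicate 2 by over 1 log2 unit at 1079 probe sets and fell short of it by as much at 1424. Subtracting a different Col(gl) array from each SOS1 array gave differences that correlated weakly over the 22746 probe sets, with r of 0.322 for like replicate numbers and 0.216 for the other pairing. Genes are not independent replicates, and these r values describe the 4 arrays only.

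The called genes were shared unevenly by the 2 SOS1 arrays on the lower side. Among the 81 higher probe sets the median difference from the Col(gl) mean was 1.14 log2 units in replicate 1 and 1.1 in replicate 2. Among the 200 lower ones it was -1.36 in replicate 1 and -0.82 in replicate 2, and replicate 1 was the farther from Col(gl) at 170 of them. Both SOS1 arrays were over 1 log2 unit from the Col(gl) mean at 107 of the 281. The mean difference passed 1 log2 unit upwards at 1.38% and downwards at 1.96% of all probe sets.

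**Figure D1:**
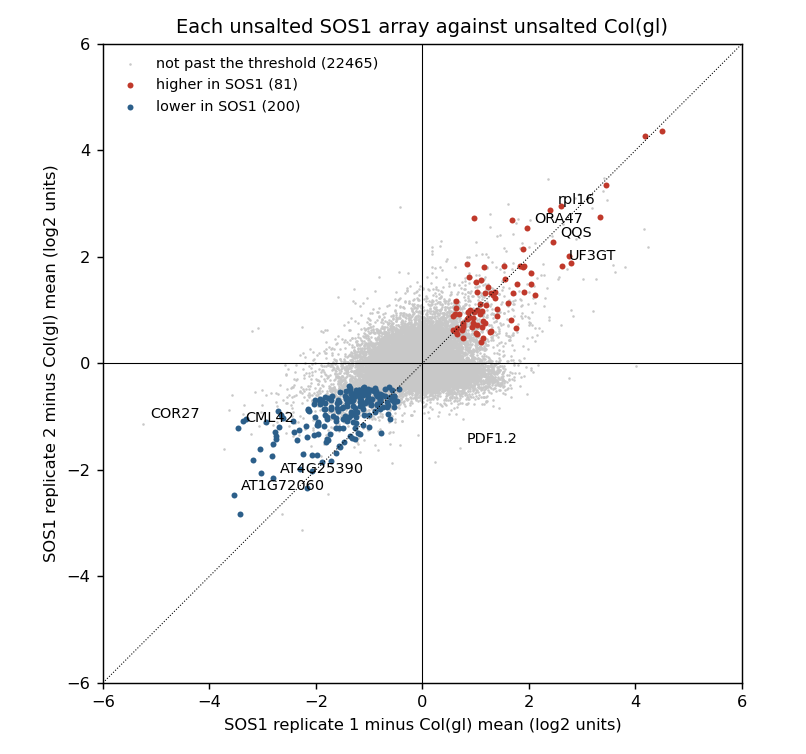
Difference of SOS1 replicate 1 (horizontal axis) and SOS1 replicate 2 (vertical axis) from the mean of the 2 unsalted Col(gl) arrays, in log2 units, for each of 22746 probe sets. Both axes share the Col(gl) mean. Red points are the 81 probe sets called higher, blue points the 200 called lower, and grey points the rest; the dotted line marks equal differences. Blue points lie mostly left of that line, since replicate 1 was farther from Col(gl) at 170 of 200, while COR27 and PDF1.2 show genes at which the 2 SOS1 arrays disagreed.

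Some genes at which the SOS1 replicates disagreed are given as a description, since 1 array against 1 array has no test. STZ and WRKY53 were picked after their values were seen, and the others by the size of the disagreement. COR27, a cold-regulated gene tied to the circadian clock, read 4.54 in SOS1 replicate 1 and 8.66 in replicate 2, against 9.74 and 9.84 in Col(gl) leaves. PDF1.2, an antifungal defensin induced by jasmonate and ethylene, read 11.15 and 8.86 in SOS1 leaves, against 10.50 and 10.42 in Col(gl) leaves. The zinc-finger factor STZ, a rapid stress-response gene, read 9.64 and 11.19 in SOS1 leaves, against 9.52 and 9.59 in Col(gl) leaves. COR27 was thus below Col(gl) in both SOS1 arrays but far more so in replicate 1, the PDF1.2 values lay on either side of Col(gl), and STZ was near the Col(gl) level in replicate 1. WRKY53, a factor of senescence and defence, read 6.92 and 8.86 in SOS1 leaves, against 6.67 and 6.44 in Col(gl) leaves, and was not called (difference 1.33 ± 0.42 SE, adjusted p = 0.144). Without a symbol there were AT5G52390 (7.72 in replicate 1 and 4.68 in replicate 2), AT5G53410, AT1G44224 and AT5G49130 on the higher side of replicate 1. On its lower side there were AT1G72900 (5.62 and 9.36), AT1G09500, AT5G52760 and AT3G10930. The probe-set differences between SOS1 replicates 1 and 2 correlated with the salt effect in Col at r of -0.335, in Col(gl) at -0.261 and in Ws at -0.136, each over 22746 probe sets and with no array in common. Those salt effects include arrays with low signals of plastid-encoded genes, namely salted Col replicate 1, salted Ws replicate 1 and both unsalted Col(gl) arrays. SOS1 replicate 1 also stood apart in the hybridization control cre. The cre control RNA read 11.35 in SOS1 replicate 1 and 12.43 in replicate 2, against 12.19 and 12.18 in Col(gl) leaves and at least 11.67 on the other 20 arrays. The bioB control read 6.1 in SOS1 replicate 1 and 6.96 in replicate 2, and salted M6PR replicate 1 was lower at 5.685. The part of these array traits in the replicate difference was not tested.

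Of the 281 called probe sets, 151 had a single gene, 35 higher and 116 lower. Only 24 of these had a symbol beyond a locus number, 8 higher and 16 lower. All 24 are named below; those outside the rule for named genes were picked after their values were seen.

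Among transport genes of the same broad family as SOS1, no change was called. The 7 sodium and potassium transport genes that could be named were all cation/proton exchangers of the CHX family. Of these, 0 passed in either direction, and their median difference was 0.00 log2 units against -0.01 over all probe sets. Most were dim. On the 16 arrays of the other genotypes the medians were 3.76 for CHX15, 3.82 for CHX21, 4.05 for CHX19 and 4.29 for CHX6B and chx28. Those of CHX16 and CHX20 were 5.03 and 7.0. A fall in the dim ones could hardly show. CHX19 had the largest difference, with 5.15 and 4.0 in SOS1 leaves against 4.08 and 3.98 in Col(gl) leaves (0.54, adjusted p = 0.417). SOS1 replicate 2 was at the Col(gl) level.

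QQS was raised about equally in both SOS1 replicates. It is an orphan gene of Arabidopsis, without relatives in other plants, and it shifts carbon and nitrogen between starch and protein. QQS read 8.59 and 8.42 in SOS1 leaves, against 6.13 and 6.13 in Col(gl) leaves. The 2 groups were well apart, and the difference of 2.37 ± 0.23 log2 units (SE, 5.19-fold) had an adjusted p of 0.000202. The call held in 10 of 11 alternative fits. On the 16 arrays of the other genotypes QQS ran from 3.77 to 7.63, so that both SOS1 arrays were above all of them while Col(gl) lay inside that range. The share called higher over all probe sets was 0.356%. The other 7 probe sets of the starch list did not pass. These include the branching enzyme SBE2.2 (8.98 and 9.46 in SOS1 leaves, against 9.71 and 9.66 in Col(gl) leaves) and the starch-phosphorylating enzyme PWD.

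Of the 8 named flavonoid and anthocyanin genes, 1 was higher in SOS1 leaves, 0 were lower and 7 did not pass. Over all probe sets 0.356% were called higher. UF3GT, a glycosyltransferase that decorates anthocyanins, read 9.73 and 8.95 in SOS1 leaves, against 7.15 and 7.07 in Col(gl) leaves. Its rise of 2.23 ± 0.47 (SE) had an adjusted p of 0.0332, and it passed in 4 of 11 alternative fits. The median difference over the list was 1.31 log2 units, with 1.79 in SOS1 replicate 1 and 0.95 in replicate 2. In 6 of the 8 genes both SOS1 arrays were above both Col(gl) arrays, as at 16.8% of all probe sets. UGT78D2, which adds the first glucose to flavonols and anthocyanidins, read 9.05 and 8.20 in SOS1 leaves, against 7.07 and 7.08 in Col(gl) leaves (1.55 ± 0.36, adjusted p = 0.052). AT5MAT, an anthocyanin malonyltransferase, read 7.01 and 6.42 in SOS1 leaves, against 5.25 and 4.70 in Col(gl) leaves (1.74 ± 0.45, adjusted p = 0.0746). DFR, the reductase that commits flavonoids to anthocyanin, read 11.03 and 9.94 in SOS1 leaves, against 9.42 and 9.41 in Col(gl) leaves (1.06 ± 0.72, adjusted p = 0.552). The chalcone isomerase-like CHIL (1.06) and AT4G14090 (2.07) also missed the threshold. The 2 members with overlapping groups were BAN, which acts in the seed coat (0.12), and UGT78D3 (0.04). At 100 mM NaCl, 4 of the 8 were called higher in SOS1 leaves, against 1.44% of all probe sets.

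The wider family of UDP-glycosyltransferases, enzymes that attach sugars to small molecules, showed the split between the SOS1 arrays. Of 51 members, 1 was higher (UF3GT), 0 were lower and 50 did not pass, against 0.356% higher over all probe sets. SOS1 replicate 1 was above the Col(gl) mean in 45 of 51, and replicate 2 in 23 of 51. The family median was 0.49 log2 units in replicate 1 and -0.04 in replicate 2. Over all 22746 probe sets replicate 1 was above the Col(gl) mean at 11060 and replicate 2 at 9999. The split was not particular to this family. Among 16 auxin genes the counts were 12 and 3, and among the 7 sodium and potassium transport genes 6 and 1.

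ORA47, an AP2/ERF factor that switches on jasmonate synthesis after wounding, was the sole called gene of the jasmonate, ethylene response factor and rapid stress lists. It read 7.25 and 7.83 in SOS1 leaves, against 5.41 and 5.16 in Col(gl) leaves. The rise of 2.25 ± 0.42 log2 units (SE) had an adjusted p of 0.0196, and it passed in 6 of 11 alternative fits. Both SOS1 arrays were above Col(gl), but ORA47 ran from 5.10 to 9.77 on the 16 arrays of other genotypes, so the SOS1 level was not outside them. The share called higher over all probe sets was 0.356%. The other 7 genes of the jasmonate list did not pass, among them PDF1.2 and the jasmonate methyltransferase JMT (5.99 and 6.42 in SOS1 leaves, against 6.54 and 6.63 in Col(gl) leaves). Of the rapid stress list, PUB24, a ubiquitin ligase that dampens immune signalling, came nearest on the lower side. PUB24 read 5.64 and 6.99 in SOS1 leaves, against 7.64 and 7.77 in Col(gl) leaves (-1.39 ± 0.35, adjusted p = 0.069).

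The last called rise of a nuclear gene with a symbol was CRR28, a pentatricopeptide protein required for editing plastid NDH transcripts. CRR28 read 6.6 and 6.46 in SOS1 leaves, against 5.45 and 5.51 in Col(gl) leaves, a rise of 1.05 ± 0.19 (SE, adjusted p = 0.0168). Of the rises known only by locus number, AT1G60590 was the largest. It read 7.83 and 7.09 in SOS1 leaves, against 5.09 and 5.07 in Col(gl) leaves (2.38 ± 0.39, adjusted p = 0.00874). On the other genotypes it ran from 5.15 to 9.56, so here it was Col(gl) that lay below all of them. AT3G23170 read 7.77 and 7.69 in SOS1 leaves, against 5.87 and 5.84 in Col(gl) leaves (1.87 ± 0.33), and both SOS1 arrays exceeded the highest of the other genotypes, 7.32. AT5G59350 rose by 1.33 ± 0.28, with 7.06 and 7.26 in SOS1 leaves against 5.79 and 5.87 in Col(gl) leaves.

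**Figure D2:**
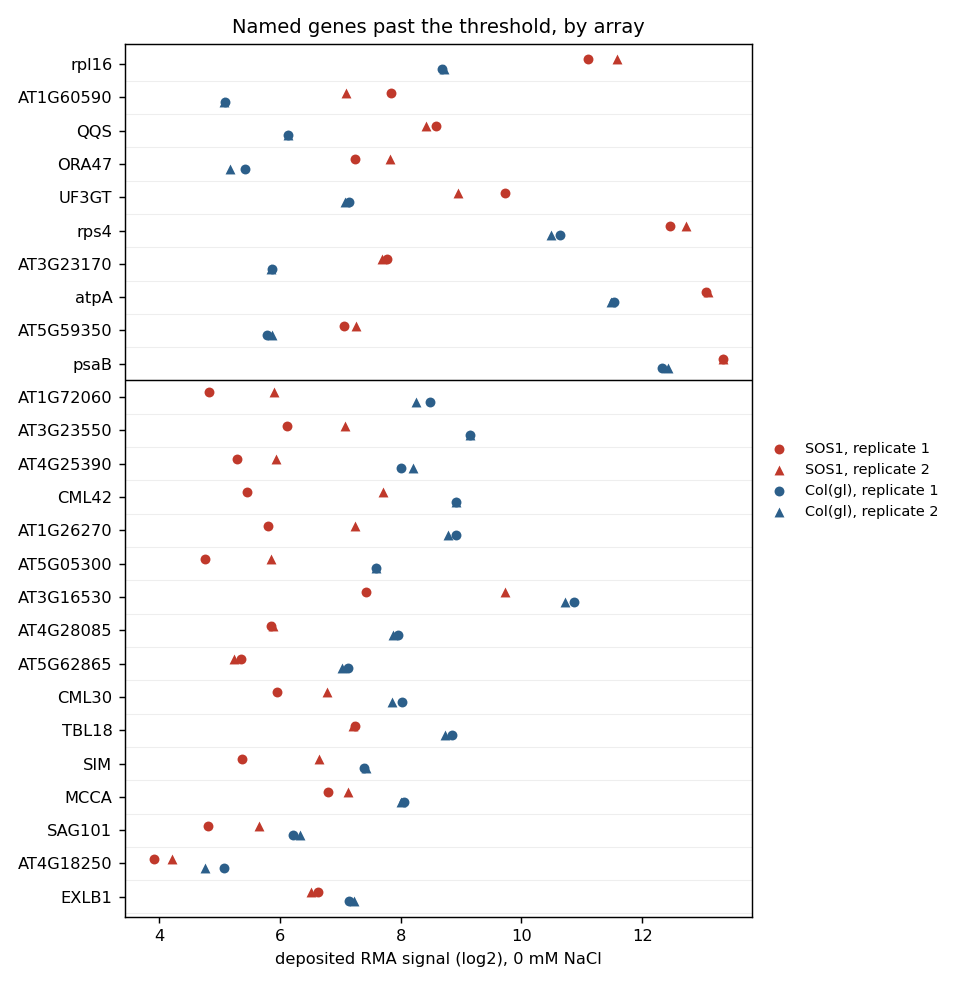
Signal (log2) on each unsalted array for the 26 genes chosen by the naming rule that passed the threshold, 10 higher and 16 lower in SOS1 leaves, ordered by size of change within each block. Red symbols are SOS1 arrays and blue symbols Col(gl) arrays; circles are replicate 1 and triangles replicate 2. No gene shows overlap between the 2 genotypes, the Col(gl) symbols nearly coincide, and the SOS1 symbols are widely spaced for falls such as CML42 and AT3G16530.

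Of the 8 calmodulin and calmodulin-like genes, small proteins that bind calcium and pass the signal on, 0 were higher and 2 were lower. Over all probe sets 0.879% were called lower. CML42, a calcium sensor that also acts in trichome branching, read 5.45 and 7.71 in SOS1 leaves, against 8.91 and 8.92 in Col(gl) leaves. Its fall of -2.34 ± 0.52 (SE) had an adjusted p of 0.0394, and the 2 SOS1 arrays were themselves over 2 log2 units apart. CML30 read 5.96 and 6.79 in SOS1 leaves, against 8.02 and 7.86 in Col(gl) leaves (-1.57 ± 0.36, adjusted p = 0.0465). CML38 lay in the same direction at 8.0 and 9.07 in SOS1 leaves, against 9.58 and 9.60 in Col(gl) leaves, but did not pass (adjusted p = 0.659). The list's median was 0.03 log2 units. CML42 passed in 4 and CML30 in 5 of 11 alternative fits.

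SAG101, a lipase-like protein that works with EDS1 in immunity and is expressed in senescing leaves, read 4.81 and 5.65 in SOS1 leaves, against 6.21 and 6.34 in Col(gl) leaves (-1.04 ± 0.21, adjusted p = 0.0289). It was the sole call among 3 salicylate and defence genes and among 4 senescence genes, while 0.879% of all probe sets were called lower. SGT1A, a co-chaperone of immune receptors, read 7.83 and 8.91 in SOS1 leaves, against 9.71 and 9.62 in Col(gl) leaves (-1.29 ± 0.28, adjusted p = 0.0382). BZIP60, a transcription factor of the unfolded protein response in the endoplasmic reticulum, read 8.74 and 9.27 in SOS1 leaves, against 9.95 and 9.87 in Col(gl) leaves (-0.91 ± 0.18, adjusted p = 0.026). All 3 fell in both SOS1 arrays, with replicate 1 the lower. ENGase85A, which removes sugar chains from glycoproteins, fell by 0.59 log2 units, with 6.02 and 5.91 in SOS1 leaves against 6.55 and 6.57 in Col(gl) leaves. The cytochrome P450 genes CYP71B23 (-1.52 ± 0.32) and CYP71B22 (-0.74 ± 0.16) fell as well. CYP71B23 read 5.26 and 6.28 in SOS1 leaves, against 7.43 and 7.14 in Col(gl) leaves. For CYP71B22 the values were 4.97 and 4.82, against 5.72 and 5.56. HHP2, a heptahelical membrane protein, read 5.30 and 5.35 in SOS1 leaves, against 6.43 and 6.69 in Col(gl) leaves (-1.24 ± 0.20, adjusted p = 0.00749). No WRKY factor was called among 7, and no glutathione S-transferase among 13.

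A pair of enzymes of amino acid breakdown were lower in SOS1 leaves. MCCA, a subunit of the carboxylase that degrades leucine, read 6.79 and 7.12 in SOS1 leaves, against 8.05 and 8.01 in Col(gl) leaves (-1.07 ± 0.24, adjusted p = 0.0466). ETFBETA, which carries electrons from such breakdown into mitochondria, read 7.80 and 8.15 in SOS1 leaves, against 8.66 and 8.66 in Col(gl) leaves (-0.69 ± 0.14, adjusted p = 0.0321). MCCA was the sole call among 9 sugar starvation genes, whose median was -0.78 log2 units. The share called lower over all probe sets was 0.879%. AKINBETA1, a subunit of the SnRK1 energy-sensing kinase, read 7.86 and 7.79 in SOS1 leaves, against 9.08 and 9.06 in Col(gl) leaves, and did not pass (-1.24 ± 0.47, adjusted p = 0.234). MCCB, the partner subunit of MCCA, differed by 0.25 and did not pass. MCCA passed in 3 and ETFBETA in 4 of 11 alternative fits. The carboxylesterase CXE20 (-0.89 ± 0.15) and the plastid cysteine desulfurase CPNIFS (-0.57 ± 0.12), which supplies sulfur for iron-sulfur clusters, were also called lower.

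Of the 3 trichome genes that could be named, only SIM was called, and it was lower. The share called lower over all probe sets was 0.879%. SIM encodes a cyclin-dependent kinase inhibitor that lets trichome cells replicate DNA without dividing. It read 5.36 and 6.64 in SOS1 leaves, against 7.4 and 7.42 in Col(gl) leaves (-1.40 ± 0.29, adjusted p = 0.0298), and passed in 4 of 11 alternative fits. GIS, a zinc-finger factor of trichome initiation, read 6.6 and 6.54 in SOS1 leaves, against 5.41 and 5.64 in Col(gl) leaves (1.04 ± 0.44, adjusted p = 0.291). TRY, a MYB repressor of trichome fate, read 5.56 and 5.63 in SOS1 leaves, against 5.04 and 4.82 in Col(gl) leaves (0.66 ± 0.33, adjusted p = 0.378). The 3 genes thus did not lie in one direction, and both groups are labelled with the same glabrous background.

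Among 80 probe sets of cell wall remodelling genes, 0 were higher, 2 were lower and 78 did not pass, with a median of -0.10 log2 units. Of all probe sets 0.879% were called lower. The expansin-like gene EXLB1 fell by 0.62 ± 0.13, with 6.63 and 6.51 in SOS1 leaves against 7.15 and 7.23 in Col(gl) leaves, and passed in 2 of 11 alternative fits. The other was TBL18, described next with its neighbours. EXLA1, an expansin-like gene of growing and touched tissue, read 9.32 and 10.38 in SOS1 leaves, against 11.39 and 11.36 in Col(gl) leaves and did not pass (-1.52 ± 0.86, adjusted p = 0.452).

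A run of neighbouring genes on chromosome 4 held 5 of the called falls. It was noticed after the values were seen, by walking along 13415 single-gene nuclear probe sets in the gene order of RefSeq's TAIR10.1 annotation in windows of 8. No window elsewhere held as many as 3 called genes, and the 8 overlapping windows at this place held up to 5. The annotation lists 15 protein-coding genes from AT4G25260 to AT4G25390, of which 8 had a single-gene probe set. Of the 8, 5 were lower in SOS1 leaves at 0 mM NaCl and 6 at 100 mM NaCl. The shares called lower over all probe sets were 0.879% and 1.7%. AT4G25280 had the smallest adjusted p of all probe sets, 2.63e-05. It read 7.31 and 7.67 in SOS1 leaves, against 9.08 and 9.11 in Col(gl) leaves (-1.61 ± 0.12). TBL18, of a family that acetylates wall polysaccharides, read 7.25 and 7.21 in SOS1 leaves, against 8.85 and 8.73 in Col(gl) leaves (-1.56 ± 0.16, adjusted p = 0.000202). AT4G25370 read 10.16 and 10.08 in SOS1 leaves, against 11.54 and 11.42 in Col(gl) leaves (-1.36 ± 0.14). The SOS1 replicates were close together in TBL18 and AT4G25370, and somewhat further apart in AT4G25280. AT4G25390 read 5.29 and 5.94 in SOS1 leaves, against 8.0 and 8.20 in Col(gl) leaves (-2.49 ± 0.30, adjusted p = 0.000891). AT4G25260 read 6.54 and 6.88 in SOS1 leaves, against 8.40 and 8.30 in Col(gl) leaves (-1.64 ± 0.32, adjusted p = 0.0237). SHB1, a regulator of seed and light growth responses, read 4.88 and 4.19 in SOS1 leaves, against 5.07 and 5.47 in Col(gl) leaves (-0.73 ± 0.20) and was called only at 100 mM. OTP70, an organelle pentatricopeptide protein, and AT4G25330 were called at neither salt level. AT4G25280, AT4G25370 and AT4G25390 passed in 10 of 11 alternative fits, TBL18 in 9 and AT4G25260 in 6.

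In this run it was Col(gl) that stood apart from the rest of the series. AT4G25280 ran from 7.43 to 7.67 on the 16 arrays of the other genotypes, a range that held SOS1 replicate 2 and lay just above SOS1 replicate 1, while every Col(gl) array was over 1 log2 unit higher. AT4G25370 ran from 9.52 to 10.20 there, TBL18 from 7.24 to 7.85 and AT4G25390 from 5.11 to 6.73. For the 6 genes called at either salt level, all 4 Col(gl) arrays were above the other 20 arrays. Over all probe sets, all 4 SOS1 arrays were above the other 20 at 7 (0.0308%) and all 4 Col(gl) arrays were above the other 20 at 259 (1.14%).

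**Figure D3:**
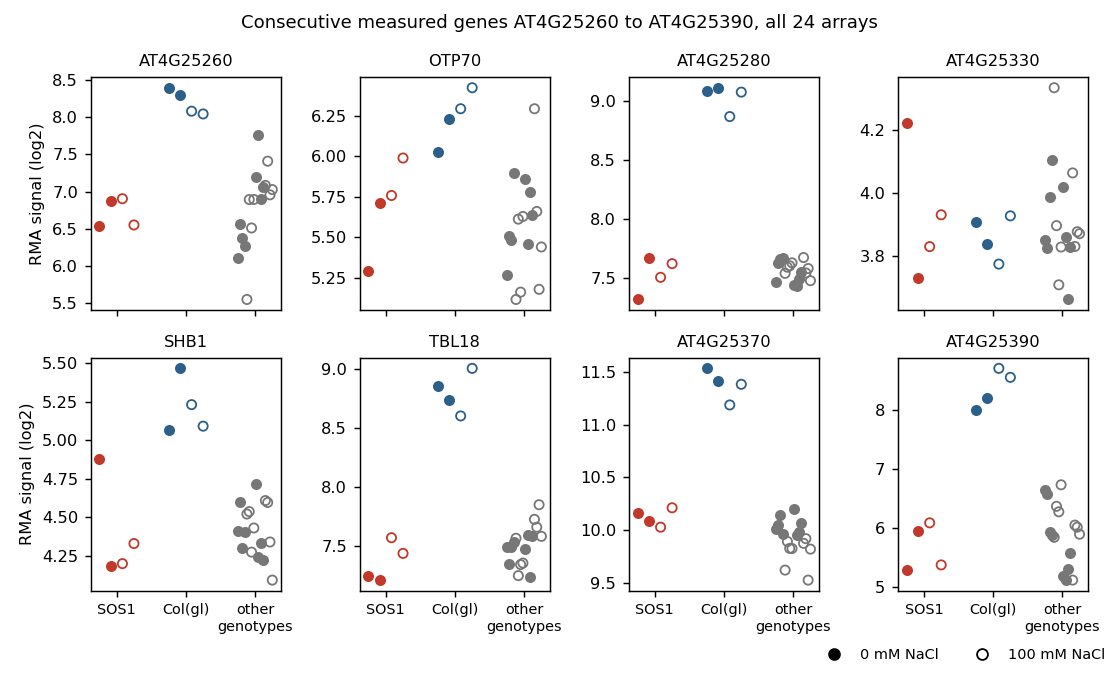
Signal (log2) of the 8 measured genes from AT4G25260 to AT4G25390, in annotation order, on all 24 arrays: 4 SOS1 arrays in red, 4 Col(gl) arrays in blue and 16 arrays of the CBF3, M6PR, Ws and Col groups in grey. Filled symbols are 0 mM and open symbols 100 mM NaCl; sideways spacing within a column has no meaning, and each panel has its own vertical scale. Blue symbols lie above every other symbol in 6 panels, and SOS1 lies with the other genotypes, while OTP70 and AT4G25330 show overlap.

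The position of each genotype among the others was then counted for all calls. Of the 200 called lower, 8 (4.0%) had both unsalted SOS1 arrays below all 16 arrays of the other genotypes, as did 1.28% of all probe sets. By contrast 109 of the 200 (54.5%) had both Col(gl) arrays above all 16, as did 2.55% of all probe sets. Of the 81 called higher, 10 (12.3%), QQS among them, had both SOS1 arrays above all 16, as did 0.251% of all probe sets. For 38 of the 81 (46.9%) both Col(gl) arrays were below all 16, as for 3.52% of all probe sets. The calls use the Col(gl) and SOS1 arrays in the same contrast, so these shares describe the called genes and are not a test.

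Genes encoded in the plastid genome gave the largest rises among genes that could be named. Plastid genes specify core subunits of the photosystems, the ATP synthase, the NDH complex, plastid ribosomes and the plastid RNA polymerase, and their transcripts mostly lack long poly(A) tails. Of 69 plastid-encoded genes, 4 were higher in SOS1 leaves, 0 were lower and 65 did not pass. Of all probe sets 0.356% were called higher. The median difference was 0.75 log2 units (-0.01 over all probe sets), with 0.60 in SOS1 replicate 1 and 0.99 in replicate 2. In 48 of the 69 both SOS1 arrays were above both Col(gl) arrays and in 9 both were below. The shares over all probe sets were 16.8% and 22.6%. The difference exceeded 1 log2 unit in 30 of the 69, against 1.38% of all probe sets.

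Among plastid ribosomal proteins (15 genes, median 0.40), rpl16 read 11.10 and 11.58 in SOS1 leaves, against 8.68 and 8.72 in Col(gl) leaves. That rise of 2.64 ± 0.52 (SE, 6.25-fold) had an adjusted p of 0.0248. The small-subunit gene rps4 read 12.46 and 12.72 in SOS1 leaves, against 10.64 and 10.50 in Col(gl) leaves (2.02 ± 0.35, adjusted p = 0.0124). The groups were far apart in both. Among photosynthesis genes (37, median 0.76), atpA, a subunit of the ATP synthase, read 13.06 and 13.08 in SOS1 leaves, against 11.53 and 11.48 in Col(gl) leaves (1.57 ± 0.29, adjusted p = 0.0168). The photosystem I core gene psaB read 13.34 and 13.34 in SOS1 leaves, against 12.33 and 12.42 in Col(gl) leaves (0.96 ± 0.16, adjusted p = 0.011). The fold of psaB was smaller, at a signal near the top of the scale.

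Larger differences missed the threshold. The ATP synthase gene atpH read 11.96 and 12.03 in SOS1 leaves, against 8.70 and 8.40 in Col(gl) leaves (3.44 ± 0.96, adjusted p = 0.0948). The neighbouring subunit gene atpF read 12.12 and 12.37 in SOS1 leaves, against 9.32 and 9.19 in Col(gl) leaves (2.99 ± 0.77, adjusted p = 0.0765). The photosystem I gene psaA read 12.65 and 12.39 in SOS1 leaves, against 9.5 and 9.43 in Col(gl) leaves (3.05 ± 1.88, adjusted p = 0.503). In all 3 the arrays compared were tightly grouped, and the SE pools in other groups, where 2 salted arrays had low plastid signals. All 3 also missed the threshold in limma's fit of the 4 compared arrays alone, each at an adjusted p of 0.0856. The large Rubisco subunit gene rbcL differed by 2.36 ± 0.99 (adjusted p = 0.29). In the fit of the 8 SOS1 and Col(gl) arrays, 16 of the 69 were called, all higher, and atpH, atpF and accD were among them. That fit's calls over all probe sets are counted above with the alternative fits, and the share of 0.356% does not apply to it. Without SOS1 replicate 1, without Col(gl) replicate 1 or without Col(gl) replicate 2, 0 of the 69 were called, at medians of 0.99, 0.73 and 0.74. Without SOS1 replicate 2, the median was 0.60.

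The medians of the other plastid groups lay in the same direction without a call. The 10 NDH genes, which serve electron flow around photosystem I, had a median of 0.84 log2 units and 0 calls. One of them, ndhK, read 8.93 and 9.57 in SOS1 leaves, against 7.46 and 7.34 in Col(gl) leaves (1.85 ± 0.69). The 7 genes of the RNA polymerase and other functions had a median of 1.1 and 0 calls. In this group accD, a subunit of the enzyme that starts fatty acid synthesis, read 10.10 and 10.35 in SOS1 leaves, against 7.05 and 7.27 in Col(gl) leaves (3.06 ± 0.92, adjusted p = 0.123), and the polymerase gene rpoC2 differed by 2.07 ± 0.83. The 10 nuclear genes of photosynthesis that could be named had a median of -0.06 and 0 calls.

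The plastid difference came with low signals in unsalted Col(gl) leaves. The median over the 69 genes was 11.05 and 11.48 on the SOS1 arrays, against 10.12 and 10.04 on the Col(gl) arrays. On the other 20 arrays it was 8.36 in 1 salted Ws array, 9.24 in 1 salted Col array, and between 10.94 and 11.60 on the rest. Salted Col(gl) leaves had 11.42 and 11.41. Probe sets for control RNAs that carry poly(A) tails read the other way. The dap control read 8.82 and 9.07 in SOS1 leaves, against 10.14 and 10.06 in Col(gl) leaves, which was above the highest of the other 20 arrays (9.70). The lys control read 6.82 and 6.72 in SOS1 leaves, against 8.16 and 8.20 in Col(gl) leaves. For phe the values were 6.87 and 7.08 in SOS1 leaves, against 8.55 and 8.53 in Col(gl) leaves, and for thr 7.72 and 6.89, against 8.50 and 8.36. All 4 controls were higher in unsalted Col(gl) leaves than on any other array, and their part in the plastid result was not tested.

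**Figure D4:**
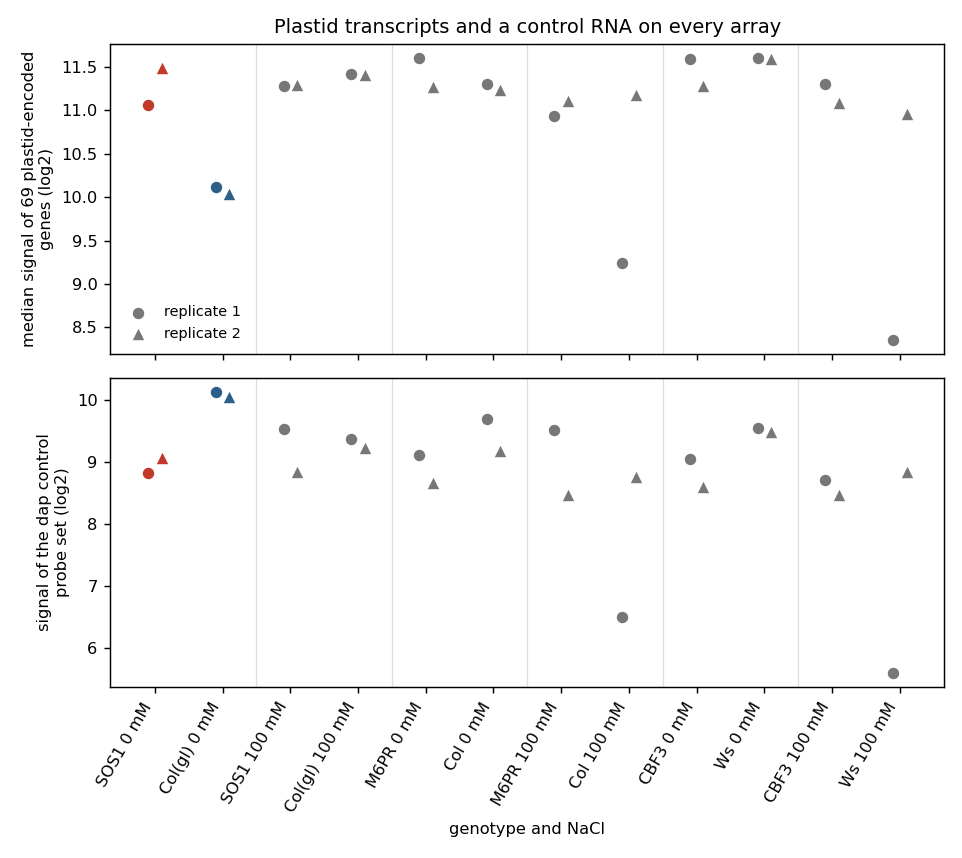
Median signal (log2) of the 69 plastid-encoded genes (upper panel) and signal of the dap control probe set (lower panel) on each of the 24 arrays, by genotype and NaCl, with each line left of its wild type. Red symbols are unsalted SOS1 arrays, blue symbols unsalted Col(gl) arrays and grey symbols the other 20; circles are replicate 1 and triangles replicate 2. Unsalted Col(gl) is near 10 in the upper panel, where most arrays are near 11, and above all other arrays in the lower one.

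Among called probe sets, the 2 largest rises and the largest fall had no single gene named here, and were picked after their values were seen. Probe set 244939_at read 8.72 and 8.58 in SOS1 leaves, against 4.55 and 3.88 in Col(gl) leaves (4.44 ± 0.69, adjusted p = 0.00679). Probe set 244940_at read 11.05 and 11.14 in SOS1 leaves, against 6.91 and 6.83 in Col(gl) leaves (4.23 ± 0.47, adjusted p = 0.000486). Salted Col(gl) leaves read 7.69 and 7.81 for 244939_at and 10.72 and 10.79 for 244940_at, in both cases between the unsalted SOS1 and unsalted Col(gl) levels. At the other end 249337_at read 4.05 and 4.65 in SOS1 leaves, against 7.43 and 7.52 in Col(gl) leaves (-3.12 ± 0.36, adjusted p = 0.000717).

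Several large falls were of genes known only by locus number. AT1G72060 read 4.83 and 5.89 in SOS1 leaves, against 8.49 and 8.25 in Col(gl) leaves (-3.01 ± 0.45, 8.04-fold, adjusted p = 0.00554). AT3G23550 read 6.11 and 7.08 in SOS1 leaves, against 9.15 and 9.14 in Col(gl) leaves (-2.55 ± 0.41, adjusted p = 0.0081). AT3G16530 read 7.43 and 9.72 in SOS1 leaves, against 10.87 and 10.73 in Col(gl) leaves (-2.22 ± 0.50, adjusted p = 0.0433), so that most of its fall came from replicate 1. By contrast AT4G28085 (5.85 and 5.89 in SOS1 leaves, against 7.96 and 7.87 in Col(gl) leaves) and AT5G62865 (5.36 and 5.24, against 7.12 and 7.03) were even across replicates. AT1G26270 fell by 2.33 and AT5G05300 by 2.28 log2 units.

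The 4 salted arrays gave the same genotype contrast in other samples. At 100 mM NaCl, 713 probe sets (3.13%) were called between SOS1 and Col(gl) leaves, 327 higher (1.44%) and 386 lower (1.7%). Of the 81 higher without salt, 43 (53.1%) were also called higher with salt, which is 13.1% of the 327. Of the 200 lower without salt, 127 (63.5%) were also called lower, which is 32.9% of the 386, and 0 were called in opposite directions. Leaving out 1 salted array gave 1483 calls without SOS1 replicate 1, 183 without SOS1 replicate 2, 88 without Col(gl) replicate 1 and 115 without Col(gl) replicate 2. The sign with salt was the same for 77 of the 81 and 198 of the 200. Over all probe sets the 2 contrasts had r of 0.725, 0.618 with SOS1 replicate 1 alone and 0.555 with replicate 2 alone. The 2 contrasts share no array, but they share the 2 genotypes, and probe sets are not independent. Their calls came from the same limma fit, which gave each probe set the same SE in both (0.233 for QQS). The overlap in calls is therefore not an independent repeat.

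QQS rose by 2.18 ± 0.23 log2 units with salt (8.53 and 8.54 in SOS1 leaves, against 6.28 and 6.42 in Col(gl) leaves), close to its 2.37 without. AT1G72060 fell by 3.70, AT3G23550 by 3.90 and AT4G25390 by 2.91 with salt, and UF3GT rose by 2.68. With salt the plastid genes had a median difference of -0.01 and 0 calls, and rpl16 differed by 0.47 ± 0.52. ORA47 differed by 0.71 ± 0.42 with salt (5.78 and 5.97 in SOS1 leaves, against 5.28 and 5.06 in Col(gl) leaves; adjusted p = 0.504).

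The difference between the 2 contrasts was tested directly and gave 0 calls in limma's fit over 24 arrays, with 672 probe sets at an unadjusted p under 0.05 and a smallest adjusted p of 0.123. So neither ORA47 nor the plastid genes can be said to differ between salt levels in that fit. The fit of the 8 SOS1 and Col(gl) arrays called 5, all with a smaller rise under salt. These were the plastid genes atpH (-3.16), accD (-2.75), psaA (-2.74) and atpF (-2.74) and probe set 244940_at (-3.74). Leaving out SOS1 replicate 2 of the unsalted arrays gave 661 calls for this difference, and leaving out SOS1 replicate 1 of the salted arrays gave 33. The smallest unadjusted p values among single-gene probe sets belonged to AT4G18250 (-0.86 ± 0.15 without salt and -1.90 ± 0.15 with it), the iron-deficiency factor BHLH101 (0.07 and -0.98) and UGT71B6 (-0.20 and -1.37), a glycosyltransferase of abscisic acid.

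**Figure D5:**
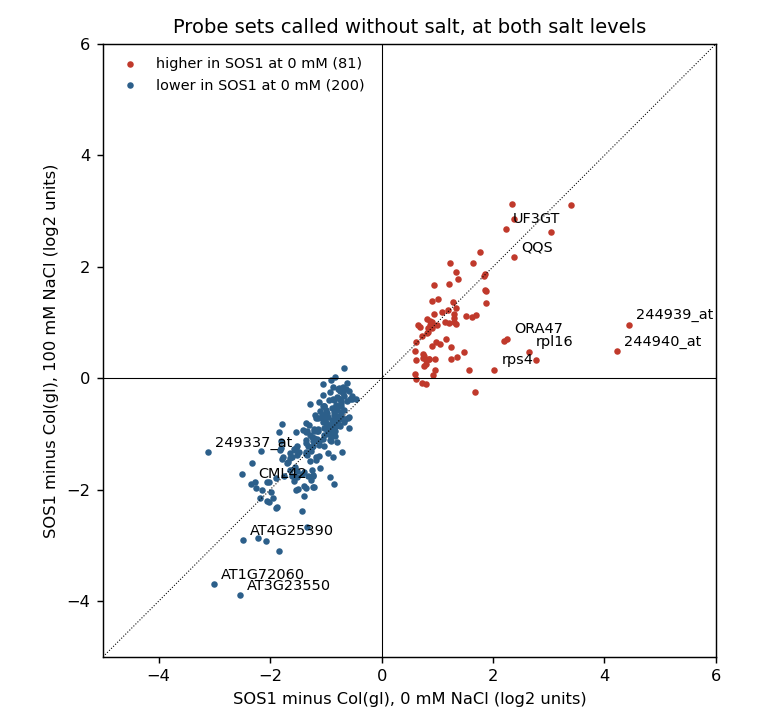
SOS1 minus Col(gl) difference without salt (horizontal axis) and at 100 mM NaCl (vertical axis), in log2 units, for the 281 probe sets called without salt; red points were called higher and blue points lower. The dotted line marks equal differences. Signs are shared by 77 of 81 red and 198 of 200 blue points, QQS lies near the line, and rpl16, rps4, 244940_at and ORA47 lie far below it.

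Other groups of genes showed no call without salt. The 5 measured genes of the cold-acclimation (CBF) regulon had a median of -0.25 log2 units. In that list COR15A, a chloroplast protectant, read 12.04 and 11.97 in SOS1 leaves, against 11.91 and 11.79 in Col(gl) leaves. The 2 abscisic acid and dehydration genes, AT3G02480 (1.26) and LEA4-5 (0.86), each had 1 SOS1 array near the Col(gl) level. There were also 0 calls among 6 antioxidant, 16 auxin, 4 gibberellin, 3 heat shock, 3 sulfur and iron and 3 universal stress genes and in the 1 clock gene. These lists hold only the members that could be named, so the counts do not speak for the whole pathways.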

How the data were processed

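Leaf RNA of 12 groups of 2 biological replicates was hybridized to Affymetrix ATH1 arrays. The values the authors deposited are log2 signals, for which the submitters' processing notes name RMA and GCOS without versions, and were used as deposited. RMA scales arrays together, so shifts shared by most genes are reduced. Of 22810 probe sets 64 controls were left out; 503 of the rest had several genes and 8730 none named here, and RefSeq (TAIR10.1) matched 13484.

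limma 3.58.1 (R 4.3.3) fitted 1 mean per group over 24 arrays (12 residual degrees of freedom); two-sided p values were adjusted by Benjamini-Hochberg over all 22746 and called at 0.05; errors are that fit's SE. On simulated data with 200 changed probe sets, this comparison recovered 61% of the 1-unit and 92% of the 2-unit log2 changes. There, 8 unchanged probe sets were called as well. These rates hold for the simulated noise only. The real replicate spread was unequal, with an SD of 0.625 in unsalted SOS1 leaves and 0.17 in unsalted Col(gl) leaves.

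Members and gene lists were chosen with earlier results of these data known. Named genes were the 8 largest rises and 8 largest falls with separate groups, the 6 rises and 6 falls largest in both SOS1 arrays, up to 4 called members per list, the 5 largest replicate differences each way, the 5 rises and 5 falls largest at both salt levels and the 3 smallest interaction p values; others named are said to be chosen later or show the rest of a list. Up to 11 alternatives per gene were tried. Only 2 arrays per group limit the precision, detection calls and scan dates were not used, and like replicate numbers in SOS1 and Col(gl) (r of 0.206 between their deviations, only 2 pairs) were not taken as pairs.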

Additional observations from a re-analysis of the deposited data

How the results depend on the processing

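For SOS1 against Col(gl) without salt, the 281 calls became 51 in the fit of 8 arrays, 0 in the fit of the 4 arrays alone, 489 with arrays centred on their medians, 8 with array weights, and 16 to 4439 when 1 array was left out. With replicate number as a block the count was 174. Quantile normalization gave 398 and leaving out the dimmest 40% gave 289. With salt, the 713 calls became 246 (8 arrays), 73 (4 arrays), 1145 (array weights) and 88 to 1483 (1 array left out). The test of the difference between salt levels gave 5 calls in the fit of 8 arrays and 0 to 661 with 1 array left out. Of the 26 named genes past the threshold, 8 stayed past it in the fit of 8 arrays, 0 in that of 4 arrays, 2 with array weights, 17 with the replicate block and 3 to 26 with 1 array left out. None of the 26 turned direction in any alternative run. Of the genes named for their replicate differences, which were not called, 8 turned direction with 1 SOS1 array left out: AT5G52390 (-0.28 to 2.76), AT5G53410 (-0.58 to 1.97), PDF1.2 (-1.60 to 0.70), AT1G44224 (-0.63 to 1.66), AT5G49130 (-0.43 to 1.83), AT1G72900 (-3.08 to 0.66), AT1G09500 (-0.42 to 2.94) and AT3G10930 (-1.59 to 1.24). The causes were not tested. No array's signal over background was checked, 2 arrays per group limit the precision, and the calls lean on the spread of groups outside the comparison. Most calls with a named gene are known by locus number only, and 8730 probe sets had no gene named here.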
